A study of Mus musculus with 20 samples.

Results

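In control germline stem cells, 549 of 25965 promoter windows carried H3K27me3 over input without passing the threshold for H3K4me3. A window belonged to this class when H3K27me3 exceeded the same-numbered input by at least 1 on the log2(RPM + 0.5) scale in both control libraries, while H3K4me3 exceeded it by less than 1.5 in at least 1 of them. RPM is a read count divided by all reads mapped in its library and given on a common scale. The members were thus chosen by control H3K27me3, H3K4me3 and input values, which are given below as a description. Of the other windows, 1992 carried both marks, 12944 carried H3K4me3 only and 10480 carried neither. The word "only" means here that H3K4me3 missed a threshold, not that it was absent. It was under 1.5 in both control libraries at 397 members and under it in just 1 library at 152 members, of which 127 missed it in replicate 1 and 25 in replicate 2.

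H3K27me3 is the trimethylation of lysine 27 on histone H3, placed by Polycomb repressive complex 2 and found at promoters of genes that are held silent, many of them regulators of embryonic development. H3K4me3 marks promoters that are active or open to activation, and is placed by the Set1 and Mll methyltransferases, of which Kmt2b is one. Where both marks lie on 1 promoter it is called bivalent, a state known from embryonic stem cells and germ cells. H3K9me3 is another repressive mark and covers repeats and some silent gene clusters.

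The cells were cultured mouse germline stem cells, the in vitro form of spermatogonial stem cells, on fibroblast feeders. Every group carried the floxed Kmt2b F/F alleles and Rosa26-CreERT2, a Cre recombinase that 4-hydroxytamoxifen (4-OHT) activates. Control cells received ethanol and knockout cells (FC/FC) received 1 µM 4-OHT, and both were collected 6 days later, so loss of Kmt2b and exposure to 4-OHT cannot be told apart. H3K4me3, H3K27me3, input and RNA had 2 libraries per group, from duplicate cell lines per the series' design. H3K9me3 had 2 control libraries and 2 inputs of its own, with no day or treatment given in the sources used here.

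Kmt2b (listed as Wbp7) had 142 and 150 RPM of RNA in control and 131 and 185 RPM in knockout. A sum over the gene does not check a deletion of part of it. Mapped reads ran from 3830045 (H3K4me3 knockout replicate 1) to 18035122 in the H3K4me3, H3K27me3 and matched input libraries. The H3K9me3 group and its inputs had between 41099186 and 63537169, and the RNA libraries between 38458010 and 45771857. At the members the median count per window was 48 and 28 reads for H3K27me3 in control, 51 and 25 in knockout, and between 5 and 7 in the 4 inputs. H3K4me3 knockout replicate 1 had a median of 1 read, and 198 members had none there. Germline stem cell markers summed to between 3953 and 4316 RPM of RNA over the 4 libraries and all 23 had reads in each. Fibroblast feeder markers summed to 604 and 644 RPM in control and to 676 and 850 in knockout. Sertoli and Leydig markers summed to 26.9 to 32.7 RPM and blood and macrophage markers to 6.94 to 8.89 RPM.

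Reference sequence is shown for 5 members that stand at the ends of the rankings below. The 250 bases upstream of the RefSeq start (GRCm38.p6) are printed 5′ to 3′ in the direction of the gene, with each CpG in capitals. Neurod2 (chr11:98329646-98329895, minus strand) was first in H3K27me3 over input in knockout, Lhcgr (chr17:88792015-88792264, minus), Olfr340 (chr2:36452337-36452586, plus) and Abph (chr7:31291817-31292066, minus) are among the 8 members with the most H3K9me3, and Barhl1 (chr2:28916669-28916918, minus) was first in H3K4me3 in knockout.
Neurod2: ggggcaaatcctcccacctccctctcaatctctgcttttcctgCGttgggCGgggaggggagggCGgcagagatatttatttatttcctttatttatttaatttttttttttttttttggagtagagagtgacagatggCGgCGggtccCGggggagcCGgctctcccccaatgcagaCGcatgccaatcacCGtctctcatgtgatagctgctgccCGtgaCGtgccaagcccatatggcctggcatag
Barhl1: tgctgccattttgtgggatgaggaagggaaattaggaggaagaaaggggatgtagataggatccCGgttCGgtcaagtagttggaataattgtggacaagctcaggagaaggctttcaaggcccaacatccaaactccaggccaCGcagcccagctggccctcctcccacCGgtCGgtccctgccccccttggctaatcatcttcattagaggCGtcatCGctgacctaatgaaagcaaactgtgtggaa
Lhcgr: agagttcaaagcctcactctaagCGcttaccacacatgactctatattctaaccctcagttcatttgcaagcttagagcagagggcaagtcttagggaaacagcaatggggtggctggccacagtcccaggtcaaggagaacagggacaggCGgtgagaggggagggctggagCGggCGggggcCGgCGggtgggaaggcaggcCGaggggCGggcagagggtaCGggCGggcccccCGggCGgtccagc
Olfr340: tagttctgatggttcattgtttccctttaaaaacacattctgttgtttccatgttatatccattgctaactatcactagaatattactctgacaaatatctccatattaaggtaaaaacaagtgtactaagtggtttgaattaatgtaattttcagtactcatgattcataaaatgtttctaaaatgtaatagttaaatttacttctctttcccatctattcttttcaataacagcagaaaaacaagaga
Abph: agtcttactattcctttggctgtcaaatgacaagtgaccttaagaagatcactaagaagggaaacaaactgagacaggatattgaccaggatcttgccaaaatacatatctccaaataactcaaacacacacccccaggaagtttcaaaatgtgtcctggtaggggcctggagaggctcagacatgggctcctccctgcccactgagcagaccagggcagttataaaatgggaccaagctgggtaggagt
Neurod2 held 11 CpG in these bases, Barhl1 7 and Lhcgr 12, or 0.632, 0.403 and 0.507 of the number that their C and G content would give. Olfr340 and Abph held none. Where the authors' windows lie relative to these bases is not given in the sources used here. The 3 genes with CpG are a neuronal bHLH factor, a homeobox factor and the luteinizing hormone receptor of Leydig cells, and those without are an olfactory receptor and a gene of the androgen-binding protein family. A RefSeq promoter within 500 bases of the listed start was at hand for 257 of the 549 members (46.8%), too few for a check of base composition over the class.

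The class also holds 1 microRNA gene, Mir196a-2, which lies 3098 bases from the bivalent start of Hoxc9. Its 2 mature products, on chromosome 15 of GRCm38.p6, are printed with the seed (bases 2 to 8) in capitals. The 5p strand is known for sites in Hox messenger RNAs.
miR-196a-5p: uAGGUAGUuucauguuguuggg
miR-196a-2-3p: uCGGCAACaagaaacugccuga
The Mir196a-2 window had 12.6 and 8.42 RPM of H3K27me3 in control and 9.93 and 6.74 RPM in knockout, against 0.507 and 0.702 RPM in the knockout inputs. All 4 stood above the inputs, and H3K4me3 stayed under 1 RPM in all 4 of its libraries. H3K27me3 over input in knockout was 2.98 (SE 0.39, limma adjusted p = 1.91e-12).

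H3K27me3 was measured again in the knockout libraries, which took no part in choosing the class. Over the knockout inputs it was called higher at 487 of 549 members (88.7%), against 16.9% of all windows tested, and lower at none (0 of 549 at an unadjusted p under 0.05 as well, limma), against 3.77% of all windows. The share was 99.1% among windows with both marks, 10.9% among those with H3K4me3 only and 3.89% among those with neither. The median over the members was 1.82 in knockout, beside 1.8 in the control libraries that set the rule. At the rule's own threshold, 408 members (74.3%, against 13.1% of all windows) passed in both knockout libraries, 491 in replicate 1, 419 in replicate 2, and 47 in neither. Without H3K27me3 knockout replicate 1 the calls came to 306.

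**Figure D1:**
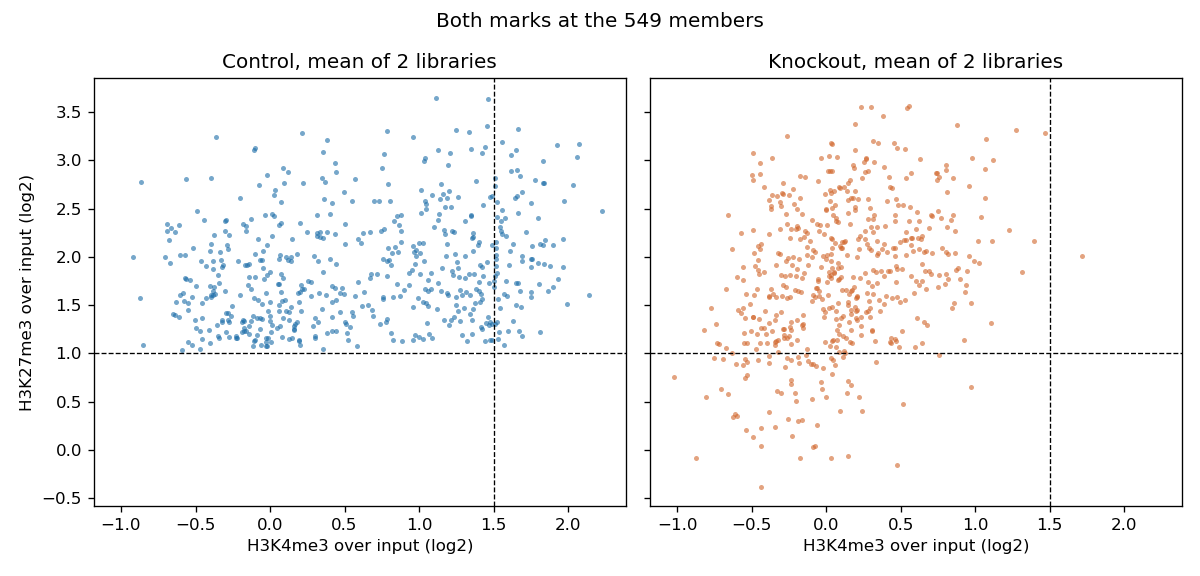
Each point is 1 of the 549 members, with H3K4me3 over input on the x axis and H3K27me3 over input on the y axis, both as log2 of RPM + 0.5 averaged over 2 libraries. Dashed lines stand at 1 for H3K27me3 and 1.5 for H3K4me3. Control values chose the members. In knockout the H3K4me3 median lies at 0.07, while that of H3K27me3 is 1.82.

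Homeobox, forkhead, Sox, Gata, T-box, Zic and bHLH factors gave 27 members. Of these, 26 were called higher in H3K27me3 over input in knockout, against 88.7% of the class. Their median was 2.47 beside 1.82 for the class. None of the 27 was called higher in H3K9me3, against 11.1% of the class and 6.06% of all windows tested. The windows of these families more often carried both marks: 16 of 202 homeobox windows were members (7.92%) and 93 bivalent, 6 of 89 forkhead to Zic windows were members (6.74%) and 35 bivalent, and 5 of 63 bHLH windows were members (7.94%) and 24 bivalent. Over all windows the class held 2.11%.

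Neurod2 (chr11:98325415-98329648) had 10.4 and 7.32 RPM of H3K27me3 in control and 12.9 and 8.26 RPM in knockout, against 0.675 and 0.211 RPM in the knockout inputs. Its groups overlapped, and H3K27me3 over input in knockout was 3.57 (SE 0.39, limma adjusted p = 1.75e-16). Hand1, a bHLH factor of heart and placenta (chr11:57828705-57832818), had 9.24 and 7.05 RPM in control and 9.72 and 5.5 RPM in knockout. Its control and knockout libraries overlapped as well, with 3.02 over input in knockout (limma adjusted p = 5.35e-13). Tbr1, a T-box factor of cortical neurons, began lower, with 1.78 and 2.01 RPM in control and 5.20 and 2.47 RPM in knockout. Both knockout libraries lay above both control libraries there, and its difference of 0.78 was the highest among the members whose groups did not overlap. Gata4, a factor of Sertoli and Leydig cells, was the exception among the 27 and is named for that reason after its values were seen. It had 2.46 and 2.29 RPM in control and 1.76 and 1.04 RPM in knockout, and 0.74 over input in knockout did not pass (limma adjusted p = 0.15).

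A run of 5 neighbouring members lay in the Hoxd cluster, whose genes pattern limbs and the body axis: Evx2, Hoxd12, Hoxd11, Gm14396 and Hoxd4, over 62117 bases and 12 windows, of which 6 carried both marks. All 5 were called higher in H3K27me3 over input in knockout, as were 88.7% of the class. Hoxd11 (chr2:74679392-74687741) had 12.7 and 7.32 RPM of H3K27me3 in control and 12.8 and 7.02 RPM in knockout, and 3.02 over input in knockout (limma adjusted p = 1.9e-12). Its H3K4me3 was 2.51 and 2.94 RPM in control and 0.783 and 1.21 RPM in knockout. RNA of Hoxd11 and Hoxd12 reached at most 0.175 RPM in any library. Windows this close can share reads, so they are not independent measurements.

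Among Wnt, FGF, TGF-beta, Hedgehog and Notch ligands and antagonists, 5 of 103 windows were members (4.85%, against 2.11% of all windows) and 42 bivalent. All 5 members were called in knockout H3K27me3, as were 88.7% of the class. Wnt10a, a secreted Wnt ligand (chr1:74791516-74804179), had 12.1 and 7.05 RPM in control and 11.3 and 6.83 RPM in knockout. It was the member that ranked in the first 10 in control and in the first 8 in knockout, at 3.46 over input (SE 0.39, limma adjusted p = 4.37e-16). Ion channels gave 7 members of 190 windows (3.68%) and neurotransmitter receptors 7 of 128 (5.47%), each called in knockout H3K27me3. Among them were Accn4, an acid-sensing channel, at 3.37 over input, and Sstr1, a somatostatin receptor, at 3.28. Neuropeptides and hormones gave 6 members of 62 windows (9.68%), all called, with Crh, the corticotropin-releasing hormone, at 2.93.

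Insl3, the peptide hormone of Leydig cells (chr8:71689214-71690575), had the highest control H3K27me3 over input of the class, 3.65. Its libraries read 13.1 and 9.61 RPM in control and 12.7 and 10.6 RPM in knockout, so the groups overlapped. Also among the 10 highest by the control values that chose them were Vav1, a signalling protein of blood cells, at 3.64, Tnxb, a matrix protein, at 3.32, the protease gene Prss56 at 3.30 and Gas2l2 at 3.24. In knockout these 4 stood at 2.97, 3.11, 3.02 and 3.11 over input. Celf3, an RNA-binding protein of neurons, and Atp2b2, a calcium pump, stood higher in knockout, at 3.56 and 3.54, and so did the uncharacterised Gm12688 near Foxd3, at 3.56.

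**Figure D2:**
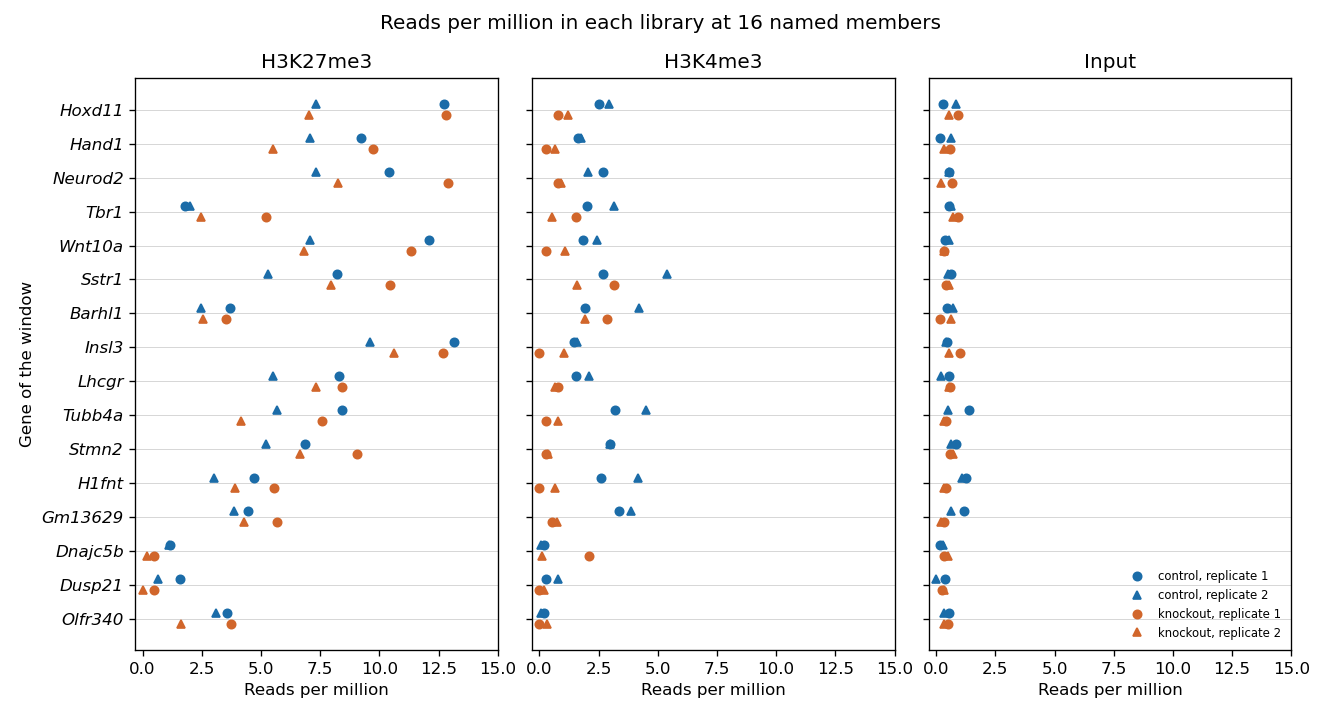
RPM in each library at 16 named members, with 1 panel each for H3K27me3, H3K4me3 and input. Circles are replicate 1 and triangles replicate 2, in blue for control and orange for knockout. H3K27me3 runs up to 13.1 RPM at Insl3, while Dnajc5b and Dusp21 stay at or under 1.57 RPM.

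The 62 members without a knockout H3K27me3 call had a control median of 1.23, closer to the threshold than the 1.92 of the 487 called. The lowest in knockout were 2210415F13Rik at -0.38, Dnajc5b at -0.15, Abcc2 at -0.09, Dusp21 at -0.09 and Pcdhb9 at -0.08. Dusp21, a phosphatase gene on X, had 1.57 and 0.641 RPM in control and 0.473 and 0 RPM in knockout, or 7 reads and 0 reads. Dnajc5b, a co-chaperone of testis, had 1.16 and 1.1 RPM in control and 0.473 and 0.190 RPM in knockout. At both genes the knockout libraries lay below the control libraries, at a depth of few reads. Members just inside the H3K27me3 threshold stood at 1.00 in their lower library (4933402P03Rik, AC124316.1 and Crygd), and windows just outside at 0.999 (Plin1, Rps6ka6 and Gm1332). At the H3K4me3 threshold, Abra, Sstr1 and Trim15 were inside at 1.49, and Scn1a, Dll3 and Egf outside at 1.5, 1.51 and 1.51.

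Knockout minus control differences in H3K27me3 are a description, since the control libraries chose the members. Their median was -0.05 on the log2(RPM + 0.5) scale, beside 0.08 over all windows and 0.36 over those with both marks. The sign of the members' median rested on single libraries: it was -0.27 without knockout replicate 1 and -0.23 without control replicate 2, but 0.11 without control replicate 1 and 0.18 without knockout replicate 2. Both knockout libraries lay above both control libraries at 43 members (7.83%, against 21.4% of all windows) and below them at 77 (14.0%, against 11.2%). When each knockout library was set against the control library of the same number, both differences were above 0 at 130 members (23.7%, against 34.7% of all windows) and below 0 at 188 (34.2%, against 18.6%). Besides Tbr1, the highest differences were at St7 and Ankrd1, a cardiac and muscle ankyrin protein, at 0.66 each. The lowest were -1.03 at Dusp21, -0.99 at Dnajc5b and -0.92 at Vmn2r65, a vomeronasal receptor.

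H3K4me3 was low in control, and knockout values lay below it on the deposited scale but above it with median centring. The control median over input was 0.61, and the median difference, knockout minus control, was -0.49, against -0.03 over all windows, -1.18 over those with both marks and 0.17 over those with neither. Both knockout libraries lay below both control libraries at 304 members (55.4%, against 30.7% of all windows) and above them at 29 (5.28%, against 11.9%). These too are descriptions. The median difference was -1.12 for the 152 members that reached 1.5 in 1 control library, and -0.06 for the 295 that stayed under 1 in both. With each library centred on the median of all windows, the median difference turned to 0.50.

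Tubb4a, a neuronal tubulin, had 3.19 and 4.49 RPM of H3K4me3 in control and 0.261 and 0.784 RPM in knockout. Stmn2, a regulator of neuronal microtubules, had 2.99 and 2.99 RPM in control and 0.261 and 0.362 RPM in knockout. H1fnt, a linker histone of spermatids, had 2.61 and 4.16 RPM in control and 0 and 0.664 RPM in knockout. All 3 had groups that did not overlap, with differences of -2.12, -2.11 and -2.04, and H3K27me3 of at least 3.02 RPM in every library. Gm14223 and 4933416E03Rik, with starts on opposite strands and nearly the same reads, followed at -2.03 and -1.99. In the other direction, Pcdhb14 had 0.290 and 0.222 RPM in control and 1.83 and 0.664 RPM in knockout, a difference of 1.12. A single read is 0.261 RPM in H3K4me3 knockout replicate 1, so the values of that library rest on few reads or none.

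Over the knockout inputs, H3K4me3 was called higher at 26 members (4.74%, against 58.8% of all windows tested) and lower at 5 (0.911%, against 1.35%), by limma. The median was 0.07, beside 2.39 over all windows. No member reached 1.5 in both knockout libraries, a level that 51.6% of all windows reached, and 11 reached it in 1. Hence no member joined the windows with both marks when the rule was applied to knockout cells: 408 remained in the class and 141 had neither mark. The class as drawn from knockout libraries took in 767 windows that had both marks in control, 170 that had H3K4me3 only and 135 that had neither.

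Barhl1, a homeobox factor of sensory neurons (chr2:28907679-28916668), led these 26. It had 2.87 and 1.93 RPM of H3K4me3 in knockout, against 0.169 and 0.632 RPM in the inputs, and the difference was 1.72 (limma adjusted p = 0.00085). Sstr1 had 3.13 and 1.57 RPM against 0.422 and 0.562 RPM, a difference of 1.47 (limma adjusted p = 0.00508). At both genes the libraries stood above both inputs, but without knockout input replicate 1 neither call held, with limma adjusted p-values of 0.216 and 0.201. The number of calls was unstable in the same way, with 1 higher and 2 lower without input replicate 1, 2 and 5 without input replicate 2, and 38 higher and 0 lower without H3K4me3 knockout replicate 2. With median centring 0 were called higher and 548 lower, against 43.3% higher and 44.9% lower of all windows. All 26 were also called higher in H3K27me3 over input in knockout, as were 88.7% of the class. Of the 26, 21 were among the 152 that had reached the H3K4me3 threshold in 1 control library. They include Adra2c, an adrenergic receptor, Edn2, an endothelin, and Col1a2, a fibroblast collagen.

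H3K9me3 did not enter the rule. In control libraries it was called higher than its own input at 61 members (11.1%, against 6.06% of all windows tested) and lower at 395 (71.9%, against 81.4%), by limma. With each library centred on its median the split was 150 higher (27.3%, against 18.6% of all windows) and 0 lower. Among the other classes the share called higher was 14.7% of windows with neither mark, 0.151% of those with both marks and 0.216% of those with H3K4me3 only. The members' share thus lay between that of windows with neither mark and that of bivalent windows. It was 17.3% of the 295 members with H3K4me3 under 1 in both control libraries, a subset chosen after seeing the data.

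Other readouts of the members with an H3K9me3 call are set here beside those of the rest, without a test. Of the 61, 45 (73.8%) were called higher in H3K27me3 over input in knockout, against 442 of the other 488 (90.6%), and the medians were 1.29 and 1.86. None of the 61 lay within 5 kb of a bivalent start, against 50 of the other 488 (10.2%). Over all windows the share was 1.64%, and 0.391% over those with neither mark, so none among 61 is near the general share. The 61 included 13 olfactory or vomeronasal receptors, 3 Pcdhb genes and 23 uncharacterised genes.

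Gm9898, an uncharacterised gene, had 3.41 and 3.43 RPM of H3K9me3 against 0.551 and 0.213 RPM in its inputs, and the difference was 2.18 (SE 0.32, limma adjusted p = 0.00019). Lhcgr (chr17:88741549-88791976) had 3.43 and 2.49 RPM of H3K9me3 against 0.393 and 0.355 RPM, a difference of 1.97 (limma adjusted p = 0.000207). Both pairs of libraries stood well above both inputs. Unlike most of the 61, Lhcgr was also among the higher members in H3K27me3, with 8.28 and 5.49 RPM in control and 8.44 and 7.31 RPM in knockout. Its RNA was 0 and 0.0225 RPM in control and 0.0874 and 0.0250 RPM in knockout. Olfr340 had 2.34 and 2.35 RPM of H3K9me3 against 0.315 and 0.284 RPM in the inputs, and 3.56 and 3.11 RPM of H3K27me3 in control. Abph, like Olfr340 without a CpG in the stretch printed above, had 2.46 and 2.29 RPM of H3K9me3 against 0.346 and 0.378 RPM. Whether both marks lie on the same molecules was not measured.

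**Figure D3:**
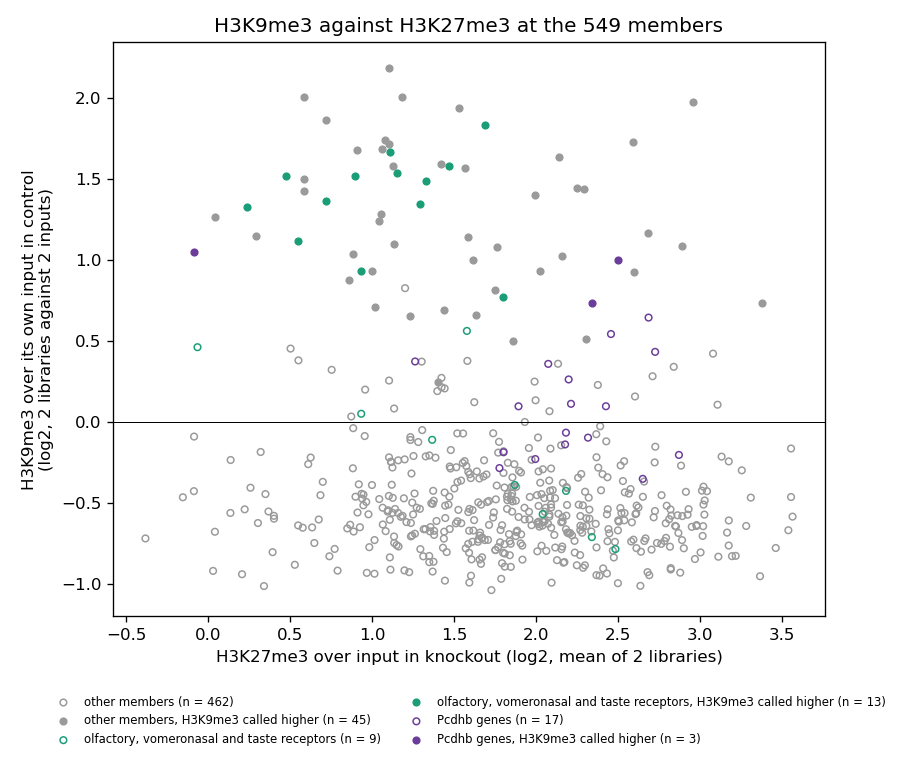
H3K9me3 over its own input in control (y axis, log2) against H3K27me3 over input in knockout (x axis, log2) at the 549 members. Filled symbols are the 61 members called higher in H3K9me3. Green marks the 22 receptor genes, all olfactory or vomeronasal, and purple the 20 Pcdhb genes. The receptors called in H3K9me3 lie mostly under 1.5 in H3K27me3.

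Of 1433 windows of olfactory and vomeronasal receptors, the chemosensory receptors of the nose, 22 were members (1.53%, against 2.11% of all windows). Another 8 carried both marks and 1398 neither. Among the 22, 15 were called in H3K27me3 over input in knockout, against 88.7% of all members, with a median of 1.31. In H3K9me3, 13 were called, against 11.1% of all members. H3K9me3 was also called at 37.0% of all receptor windows. Olfr222 held the highest H3K27me3 of these members, with 6.29 and 4.39 RPM in control and 5.74 and 4.27 RPM in knockout. It was not called higher in H3K9me3, at -0.79. No RNA read in either control library was found for 17 of the 21 in the RNA table, against 31.4% of all members and 17.7% of all genes. Reads of near-identical receptor genes may be split or lost in mapping, so single values are uncertain.

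The clustered protocadherin beta genes, cell adhesion proteins that give neurons their identity, were the longest run of members. Of 22 Pcdhb windows, 20 were members, Pcdhb1 carried both marks and Pcdhb8 neither. Pcdhb2 to Pcdhb7 and Pcdhb9 to Pcdhb22 each formed a run without another class between them, and chromosome 18, which holds them, had 29 members among 546 windows (5.31%). In knockout 19 of the 20 were called in H3K27me3 over input, against 88.7% of all members, with a range of -0.08 to 2.87 and a median of 2.21. Pcdhb22 had 5.82 and 5.04 RPM of H3K27me3 in control and 8.44 and 5.41 RPM in knockout, and 2.87 over input (limma adjusted p = 5.38e-12). Pcdhb11 had 4.65 and 3.39 RPM in control and 5.54 and 3.42 RPM in knockout. Pcdhb9 stood apart, with 1.09 and 1.37 RPM in control and 0.675 and 0.569 RPM in knockout, against 0.675 and 0.702 RPM in the inputs.

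H3K9me3 over the same 20 windows ran from -0.35 to 1.05, with a median of 0.10. Of the 20, 3 were called higher, against 11.1% of all members. Pcdhb9 had 1.34 and 1.20 RPM of H3K9me3 against 0.315 and 0.402 RPM in its inputs (difference 1.05, limma adjusted p = 0.00115). Pcdhb13 had 0.560 and 2.15 RPM against 0.456 and 0.237 RPM, so its libraries were far apart (difference 1.00, limma adjusted p = 0.0268). No read of RNA was found in either control library for 19 of the 20, against 31.4% of all members and 17.7% of all genes. The highest value was 0.026 RPM in control and 0.05 RPM in knockout. Pcdhb genes resemble each other in sequence and their reads may be split between them, which was not tested.

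**Figure D4:**
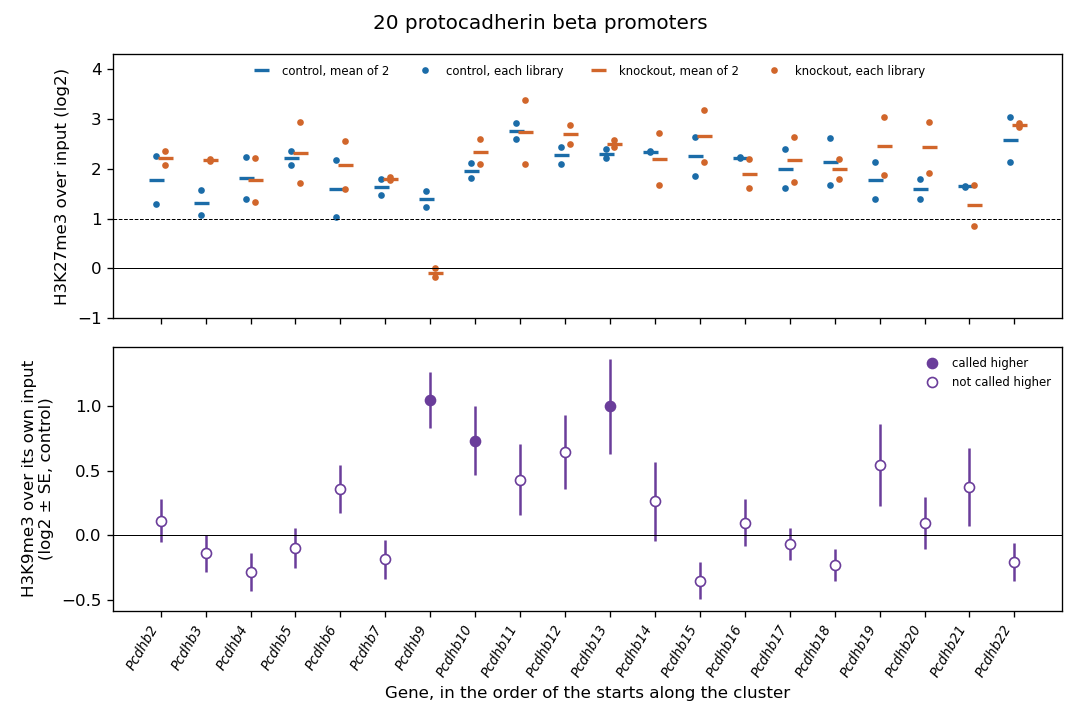
H3K27me3 over input in each library (upper panel, log2, dots, with the mean of 2 as a dash) and H3K9me3 over its own input in control (lower panel, log2 ± SE) at the 20 Pcdhb members in the order of their starts. The dashed line stands at the threshold of 1. Pcdhb9 is near 0 in knockout H3K27me3 and highest in H3K9me3, at 1.05.

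Most members had little RNA. Of the 529 in the RNA table, 402 (76.0%, against 43.7% of all genes) were under 1 RPM in both control libraries, and 390 (73.7%) in both knockout libraries. The share in control was 78.6% for windows with neither mark, 62.7% for those with both marks and 11.5% for those with H3K4me3 only. No read in either control library was found for 166 members (31.4%, against 17.7% of all genes). That share was 39.6% for windows with neither mark and 9.07% for those with both marks. In a culture with feeders, fewer cells of a type and less RNA per cell cannot be told apart. Col1a2 and Fbn1 are both members and feeder markers, and Fbn1 is named for that reason. Col1a2 had 28.2 and 33.1 RPM of RNA in control and 30.1 and 40.2 RPM in knockout, and Fbn1 10.3 and 9.96, then 8.74 and 12.6 RPM. The part of feeder cells in these values was not tested.

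Among the 474 members with a RefSeq entry, 371 (78.3%) were protein-coding, 46 (9.71%) noncoding RNA genes and 57 (12%) pseudogenes. Pseudogenes made up 2.86% of all matched windows, 2.42% of those with both marks and 6.06% of those with neither. Of 55 pseudogene members in the RNA table, 44 had at least 1 RPM in both control libraries, against 57 of 359 coding, 5 of 43 noncoding and 11 of 72 unmatched members. Among pseudogenes with both marks it was 37 of 45 (82.2%), and among all pseudogenes 388 of 635 (61.1%). H3K27me3 over input in knockout was called at 52 of the 57 (91.23%, against 88.7% of all members). H3K9me3 was called higher at 14 of the 57 (24.56%, against 11.1% of all members). That share was 16.01% over all pseudogene windows and 17.67% over pseudogenes with neither mark, against 6.06% of all windows tested. Gm6139 had 834 and 847 RPM of RNA in control and 853 and 717 RPM in knockout, with 1.85 and 1.92 RPM of H3K27me3 in control. Gm6576 had 616 and 634 RPM in control and 622 and 528 RPM in knockout. Neither passed the RNA test (limma adjusted p = 0.671 and 0.598). Reads of a pseudogene cannot be told from those of its parent gene where they are near-identical, and how such reads were counted is not given in the sources used here.

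**Figure D5:**
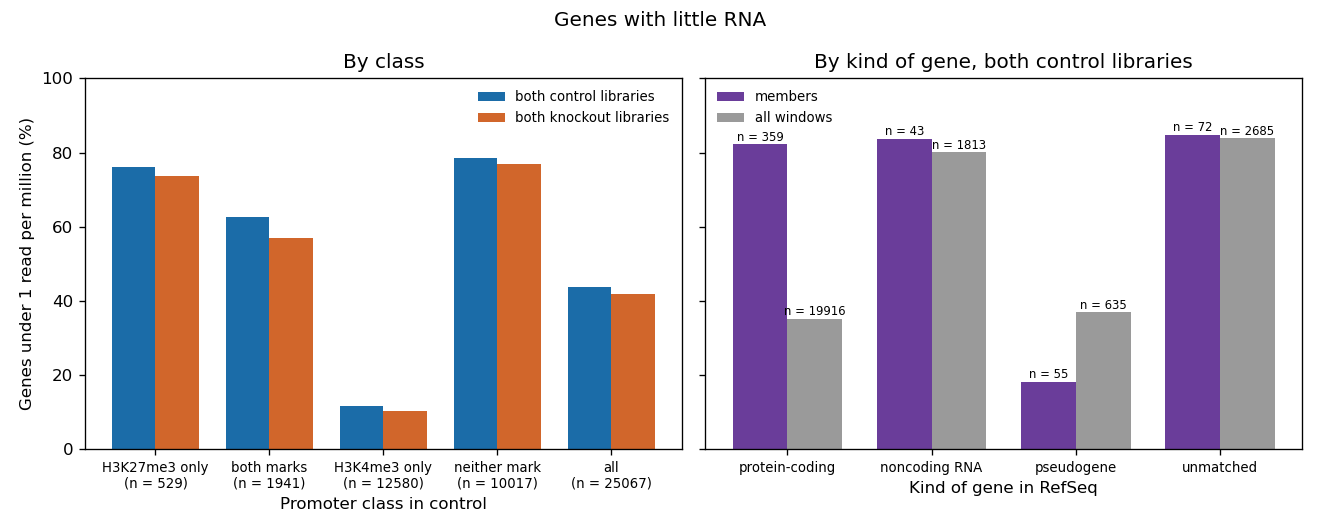
Percent of genes under 1 RPM of RNA in both libraries of a group, by promoter class (left panel, blue control and orange knockout) and by kind of gene in control (right panel, purple members and grey all windows). The members stand at 76.0% in control. Pseudogenes are the kind in which fewer members (18.2%) than windows in general (36.8%) are under 1 RPM.

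Of the 46 noncoding members, 17 (37.0%) had a start within 5 kb of a bivalent start, against 5.33% of all noncoding windows and 49.7% of bivalent noncoding windows. Over the whole class it was 50 members (9.11%, against 1.64% of all windows). The 6 closest noncoding pairs were Gm13629 with Scn1a at 40 bases, Gm12750 with Ttc39a at 468, Gm16551 with Gm20649 at 480, 2210416O15Rik with Cuedc1 at 1088, 9430041J12Rik with Ttyh1 at 1320 and 5730457N03Rik with Evx1 at 1334. Gm13629 had 4.45 and 3.85 RPM of H3K27me3 in control and 5.67 and 4.27 RPM in knockout. Its H3K4me3 was 3.38 and 3.88 RPM in control and 0.522 and 0.724 RPM in knockout, with no overlap. At such distances neighbouring windows can count the same fragments.

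Between knockout and control, 126 of the 529 members had enough RNA to be tested. Of these, 5 were called higher (3.97%, against 3.01% of all genes tested) and 1 lower (0.794%, against 0.312%), by limma. The median log2 fold change was 0.01, beside 0.06 over all genes tested. Tap2, a peptide transporter of antigen presentation (chr17:34203527-34216321), had 5.56 and 5.81 RPM in control and 11.4 and 13.1 RPM in knockout. Both knockout libraries lay above both control libraries, and the log2 fold change was 1.1 (SE 0.13, limma adjusted p = 0.0204). Hemt1, a transcript known from blood cells (chr15:74819071-74824436), had 2.18 and 2.10 RPM in control and 0.874 and 0.674 RPM in knockout, and fell by 1.48 on the log2 scale (SE 0.24, limma adjusted p = 0.0304).

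The other 4 that rose were Cryab, a small heat shock protein, by 1.21, Epor, the erythropoietin receptor, by 0.99, Stard8 by 0.97 and 1700008O03Rik by 0.85, with limma adjusted p-values between 0.0408 and 0.0493. Cryab had 0.988 and 1.17 RPM in control and 2.91 and 2.12 RPM in knockout, and Epor had 1.30 and 1.58 RPM, then 2.84 and 2.85 RPM. At neither gene did the groups overlap. H3K27me3 at Hemt1 was 4.04 and 3.30 RPM in control and 3.78 and 2.85 RPM in knockout, and at Tap2 1.44 and 0.824, then 1.28 and 1.52 RPM, so the groups overlapped. At Stard8 it was 1.09 and 1.28 RPM in control and 1.76 and 1.33 RPM in knockout, with both knockout libraries higher. Of 24 feeder markers tested in RNA, 4 were called higher in knockout (Col6a3, Pdgfra, Col1a1 and Twist1), and of 23 germline stem cell markers 3 (Ret, Nanos2 and Gfra1). Over all genes tested 3.01% were called higher. The part of these markers in the members' RNA was not tested. With quantile normalization 1 was called higher and 0 lower, with median centring 1 and 1, and with no filter on low values none in either direction. The calls also moved with single libraries. Leaving out control replicate 1 gave 1 higher and 1 lower. Leaving out knockout replicate 1 gave 28 and 29 (22.2% and 23.02%, against 37.3% and 10.3% of all genes), and leaving out knockout replicate 2 gave 24 and 26 (19.4% and 21.0%, against 20.9% and 22.1%). Between the 2 knockout RNA libraries the chi-square of the counts, divided by its degrees of freedom, was 23.7, against 2.24 between the 2 control libraries.

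None of 33 windows of Polycomb subunits, 18 of H3K4 methyltransferase complexes and 9 of H3K27 and H3K4 demethylases was a member. With 2.11% of all windows in the class, lists this short can be without a member. In the RNA test (limma) no gene of these lists was called, of 32, 18 and 9 tested, while 6, 0 and 1 had an unadjusted p under 0.05. Over all 14100 genes tested, 2326 were higher and 508 lower in knockout at that unadjusted p. The 6 of 32 are thus not set apart from genes in general. None of 23 germline stem cell marker windows was a member. Imprinted genes gave 3 members of 59 windows, Calcr, Asb4 and Grb10. All 3 were called in H3K27me3 over input in knockout, as were 88.7% of the class. Grb10, an adaptor of insulin receptor signalling, had 4.86 and 3.94 RPM in control and 6.62 and 6.17 RPM in knockout. Its H3K4me3 was 2.90 and 3.99 RPM in control and 0.522 and 0.844 RPM in knockout, and its RNA 7.51 and 8.68, then 6.62 and 8.27 RPM.

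Other G protein-coupled receptors gave 11 members of 227 windows (4.85%), all 11 called in knockout H3K27me3. Among them was Ffar1, a fatty acid receptor, with 6.70 and 5.13 RPM in control and 10.7 and 5.31 RPM in knockout. Keratins and epithelial genes gave 8 of 224 (3.57%), of which 7 were called, with Krt4 at 2.54 over input in knockout. Matrix genes and proteases gave 8 of 172 (4.65%), with 7 called, and cytokines, chemokines and their receptors 7 of 203 (3.45%), with 6 called. Solute carriers gave 7 of 344 (2.0%) with 5 called, and leukocyte surface genes 6 of 251 (2.39%) with 4 called. Muscle contraction genes gave 4 of 68 (5.88%) with 3 called. Over all windows the class held 2.11%, and 88.7% of all members were called, so solute carriers and leukocyte surface genes lay near the general share. C2H2 zinc finger genes, of which 300 of 387 windows carried H3K4me3 only, gave 1 member, Zfp648. Crystallin genes of the eye lens were not a planned list and are named after their values were seen. Their windows outside the class were not counted. Crygd, Crygc and Crygb, which lay side by side on chromosome 1, were each called, and so were Crygf and Cryba2 elsewhere on that chromosome. Crygd, Crygc and Crygb had no RNA read in any library, and Crygf had 0.0218 RPM in 1 knockout library and none elsewhere. Cryba2 had 0.0520 and 0.180 RPM in control and 0.262 and 0.150 RPM in knockout. Cryab, also a member, had more RNA, as given above. Uncharacterised genes were the largest of the lists, with 176 members of 6338 windows (2.78%).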

How the data were processed

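H3K4me3, H3K27me3, H3K9me3 and input DNA (ChIP-seq) and RNA (RNA-seq) were measured in 20 libraries, grouped by their labels. The authors deposited log2 RPM values, 1 window per gene for chromatin and 1 row per gene for RNA, not divided by input or gene length. How wide the windows are, where they lie, and how multi-mapping reads and strand were handled is not given in the sources used here. CASAVA 1.8, Trim Galore 0.4.0, Bowtie 1.1.1, TopHat2 2.0.14 and build mm10 are listed per the submitters' processing notes, without their roles. Every value was a whole number of reads (100%, within 0.1), and the lowest value in a library stands for no read (0.9 of a read) and is printed as 0 RPM.

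Tests were two-sided with limma 3.58.1 (R 4.3.3) with a mean-variance trend, Benjamini-Hochberg adjustment over all windows or genes tested, and a call at an adjusted p under 0.05. Chromatin was tested on log2(RPM + 0.5) over windows with a read, and RNA on log2 RPM as deposited at a mean of at least 0. Differences over input and SE are on these scales, and understate changes at low values. The tests of H3K27me3 over input and of RNA were also run on simulated counts with a fixed spread. The tests of H3K4me3 and H3K9me3 were not. Such counts do not check a test at the spread of these libraries. Kinds of gene, promoters and microRNAs came from RefSeq (GRCm38.p6): 425 members matched by symbol, 49 by an older symbol and 75 did not. RPM of RNA is not per length, so shares under or over 1 RPM and the choice of members with the highest RNA also depend on transcript length.

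Members, gene lists and tests were chosen with earlier results of these data known. Named genes are the members with the highest control or knockout values, the lowest knockout values, the largest knockout minus control differences without overlap, the RNA calls, the highest RNA, the largest H3K9me3 calls, and the top 4 of each list by control H3K27me3. Sequences were picked from part of these by the highest and lowest CpG ratio, and as first in knockout H3K27me3 or H3K4me3 over input. Alternatives were other pseudocounts, filters, scalings, limma voom on the recovered reads, a replicate block, other class thresholds, and leaving out each library. P-values rest on the spread between the libraries of a group and on the trend over all windows or genes. No label ties a library to a line, so they cannot be taken to measure variation between lines.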

Additional observations from a re-analysis of the deposited data

How the results depend on the processing

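With 2 libraries per group and a median of 5 to 7 input reads at the members, small differences over input were not detectable. H3K27me3 calls in knockout ranged from 306 to 439 when 1 library was left out. H3K4me3 calls were 15 higher and 0 lower where windows under 0.5 RPM on average were left out, 11 and 3 with limma voom, 0 and 548 with median centring, which by construction removes the mark shared by most windows, and 1 to 38 higher and 0 to 7 lower with 1 library left out. H3K9me3 calls were 150 higher and 0 lower with median centring, 0 lower with the filter of 0.5 RPM, where 77 members were tested, and 49 to 71 higher and 340 to 382 lower with 1 library left out. Median centring moved the median of all windows from 2.39 to -0.06 for H3K4me3 and from -0.66 to 0.01 for H3K9me3. RNA calls were 0 and 0 with no filter (390 members tested, 38 up and 11 down by unadjusted p under 0.05), 1 and 0 with quantile normalization, 1 and 1 with median centring, and 1 to 28 higher and 1 to 29 lower with 1 library left out.

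The class had 302 members at an H3K27me3 threshold of 1.5 and 295 with H3K4me3 under 1 in both libraries. The latter set, chosen after seeing the data, had H3K9me3 called at 17.3%. Members with no RNA read in either control library numbered 166 (31.4%, against 17.7% of all genes). The median H3K4me3 difference turned to 0.50 with median centring. Among named genes, H3K27me3 over input in knockout ran from -0.40 to 0.094 at Dnajc5b and from -0.45 to 0.28 at Dusp21 with 1 library left out, where both turned positive without H3K27me3 knockout replicate 2 and Dusp21, at 0.0025, also without input knockout replicate 2. It turned with median centring to 0.0025 at Abcc2, 0.0036 at Dusp21 and 0.0046 at Pcdhb9. H3K4me3 over input in knockout turned with median centring to -0.73 at Barhl1, -0.98 at Sstr1, -1.06 at Gm12541, -1.14 at Rimbp2, -1.18 at 4930447C04Rik, -1.23 at Slco6c1 and -1.34 at Adra2c and 4930589P08Rik. The cause of the other changes was not tested.

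The labels give control and knockout the same replicate numbers. Deviations of same-numbered libraries correlated at -0.0037 for knockout H3K27me3 with input, 0.0021 for knockout H3K4me3 with input and 0.091 for RNA of control with knockout, but at 0.26 for H3K27me3 and 0.35 for H3K4me3 of control with knockout (0.083 and 0.18 at the members). With 2 numbers and no label that ties them to a line, they were not taken to pair the libraries. With a replicate block the calls were 487 for H3K27me3, 23 higher and 4 lower for H3K4me3, and 11 higher and 1 lower for RNA. By same-numbered differences, chosen after seeing the data, H3K27me3 was higher in both at 130 members and lower at 188, and H3K4me3 higher at 39 and lower at 356, against 43, 77, 29 and 304 without overlap.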
